A study of Mus musculus with 4 samples.

Results

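Expressed genes of mouse chromosome 6 were compared between Myh9 KO and wild-type (WT) embryonic stem cells, by expression level and by position along the chromosome. Members were all chromosome 6 genes with a mean deposited value of at least 5 over the 4 libraries, after leaving out named families (zinc finger, solute carrier, respiratory chain, ribosomal and some other genes) and 21 single genes given by name. The rule kept 346 genes of the 50600 rows of the table, or of the 3131 rows on chromosome 6. Of the 397 chromosome 6 genes that reached the mean of 5, 51 were dropped by name. The libraries were 2 of WT OG2ES cells and 2 of OG2ES cells with Myh9 deficiency, all kept in mES medium plus 2i, inhibitors of the MEK and GSK3 kinases that maintain naive pluripotency, and labelled as inner cell mass. The labels name no clone, passage or age. They do not say how Myh9 was disrupted or whether replicates were separate cultures, so p-values measure only how far these libraries scatter, possibly for technical reasons. The number of KO lines is not given either, and what is particular to the line or lines used cannot be told apart from the loss of Myh9.

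A chromosome that is gained or lost as a whole changes the gene dosage of everything it carries, and the transcript levels of most of its genes then tend to shift in the same direction. Mouse ES cell lines are known to gain whole chromosomes in culture, and RNA levels alone do not count DNA copies. DNA was not measured here, and the part of copy number in any result below was not tested. As a scale only, 3 copies in place of 2 would give a ratio of 1.5, a log2 value of 0.58, if transcript levels followed copy number exactly.

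Shown first are the members with the largest called rises, the hormone precursor gene Trh and the membrane protein gene Pianp, and Bcat1 and Tuba3a, the conventionally named members that fell. The 250 bases before their start sites (RefSeq, GRCm38.p6) are shown with each CG dinucleotide in capitals, to let these start sites be compared. They lie at chr6:92244651-92244900 (minus strand), chr6:124996470-124996719 (plus strand), chr6:145076158-145076407 (minus strand) and chr6:125286082-125286331 (minus strand).
Trh: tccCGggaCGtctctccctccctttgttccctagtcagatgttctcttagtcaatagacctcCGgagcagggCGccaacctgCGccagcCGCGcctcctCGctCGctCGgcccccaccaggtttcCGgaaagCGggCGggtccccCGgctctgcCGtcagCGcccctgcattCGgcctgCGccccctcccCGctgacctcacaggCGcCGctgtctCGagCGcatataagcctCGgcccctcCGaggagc
Pianp: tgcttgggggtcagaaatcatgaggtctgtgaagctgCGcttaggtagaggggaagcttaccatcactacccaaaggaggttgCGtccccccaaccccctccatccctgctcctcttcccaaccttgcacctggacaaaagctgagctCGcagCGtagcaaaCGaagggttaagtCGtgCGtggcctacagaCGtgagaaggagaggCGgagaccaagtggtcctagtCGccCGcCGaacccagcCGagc
Bcat1: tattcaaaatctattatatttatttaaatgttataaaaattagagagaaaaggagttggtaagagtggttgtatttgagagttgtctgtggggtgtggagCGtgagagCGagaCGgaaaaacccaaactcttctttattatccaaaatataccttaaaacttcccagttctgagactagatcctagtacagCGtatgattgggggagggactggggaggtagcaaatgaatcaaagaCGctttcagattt
Tuba3a: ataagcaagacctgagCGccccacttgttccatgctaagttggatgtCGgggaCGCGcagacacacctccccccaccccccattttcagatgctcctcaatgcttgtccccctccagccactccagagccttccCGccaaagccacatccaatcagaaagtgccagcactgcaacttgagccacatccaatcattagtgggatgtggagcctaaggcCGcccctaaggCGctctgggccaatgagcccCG
The Trh stretch held 25 CG dinucleotides, that of Pianp 13, that of Tuba3a 8 and that of Bcat1 5. RefSeq windows from 250 bases before to 50 after the start were matched by symbol for 282 of the 346 members. Their median was 21 CG dinucleotides, against 22 in 6042 other genes with a mean of at least 5. The letters GGGCGG were present on either strand in 70.6% of the members' windows, 69.1% of those other genes' windows and 44.6% of the windows of all 19086 matched genes. The letters TATAAA were present in 6.74%, 6.09% and 12.9%. Members called higher and members not called had the same median of 21 CG dinucleotides, and GGGCGG was present in 64.5% of the windows of the former and 74.6% of the latter. Over all matched members, these 3 measures lay close to those of other expressed genes.

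Myh9, the targeted gene on chromosome 15, was at 83 and 100 in the WT libraries and at 9 in both Myh9 KO libraries (log2 fold change -3.20, limma adjusted p = 0.00675). Values in the table are whole numbers of per-million size, and each library summed to between 992098 and 992317. All 8 mouse ES cell markers were listed in every library, at values from 51 to 4841. Their sum was 9074 and 9302 in WT against 7798 and 7682 in Myh9 KO. That sum mainly followed Dppa5a, the marker of highest value, which went from 4755 and 4841 to 3438 and 3205. Sox2, Esrrb and Tfcp2l1 were also lower in both Myh9 KO libraries, Klf4 and Zfp42 were higher, and Pou5f1 and Utf1 overlapped between groups. The 15 mitochondrially encoded genes that passed the filters had a median log2 fold change of -0.90 and lay below both WT libraries in both Myh9 KO libraries, and the part of these shifts in the results below was not tested. Of 10 feeder fibroblast markers 7 were listed at 0 throughout, Fn1 stood at 229 to 277, and the summed list was 255 and 281 in WT against 234 and 266 in Myh9 KO. In these bulk libraries a change in the share of cells and a change in RNA per cell cannot be told apart.

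Chromosome 6 members were higher in Myh9 KO cells as a body. Their part of all values was 2.45% in WT 1, 2.47% in WT 2 and 3.43% in both Myh9 KO libraries, a ratio of 1.39. Without the 10 members of highest mean value the shares were 1.71% and 1.74%, then 2.41% and 2.38%, a ratio of 1.38. The Myh9 KO libraries lay above both WT libraries in each case.

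The median log2 fold change of the 346 members was 0.45, which is 1.37-fold, and their middle 50% lay between 0.27 and 0.66. All fold changes are Myh9 KO against WT on the log2(value + 1) scale, which understates changes of low genes. Against the WT mean the median member stood at 0.50 in Myh9 KO 1 and 0.45 in Myh9 KO 2, while WT 2 differed from WT 1 by a median of 0.02. On the other 17 autosomes, chromosome 8 apart, the 6615 genes passing the same filters had a median of -0.03, with chromosome medians from -0.15 to 0.02. Chromosome 8, with 490 genes, had a median of 0.21. The distribution on chromosome 6 was displaced with little change in its interquartile range, which was 0.39. That range was 0.36 on the other autosomes and 0.35 on chromosome 8. The standard deviation was wider, at 0.56 against 0.47 and 0.35. With the trend on GC content and length removed, the chromosome 6 median was 0.55, which lay 0.52 above the other autosomes.

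**Figure D1:**
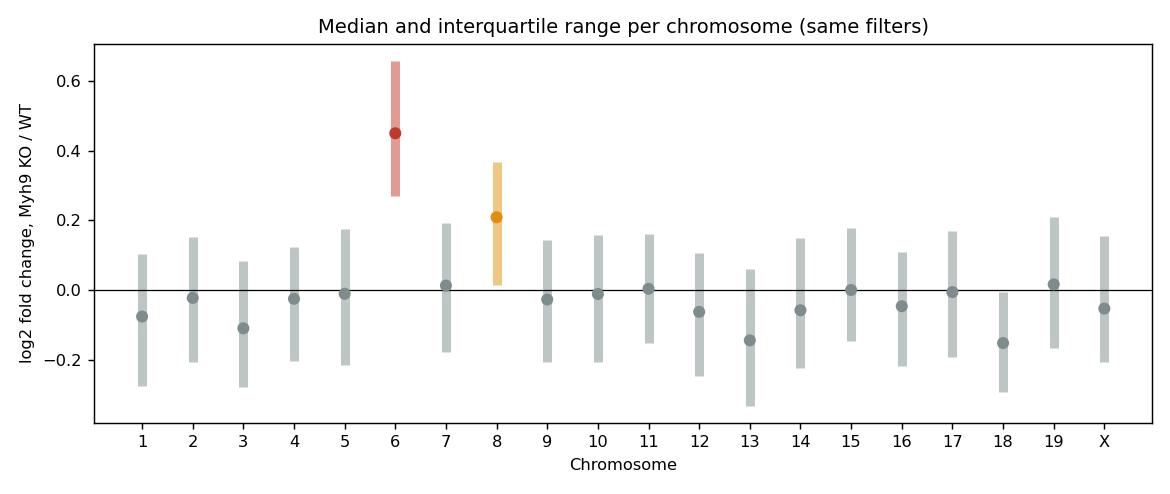
Median (point) and interquartile range (bar) of the log2 fold change, Myh9 KO against WT, for genes of each chromosome whose mean value reached 5, with the same names left out. Chromosome 6 (red) lies highest at 0.45, chromosome 8 (orange) follows at 0.21, and the other autosomes lie between -0.15 and 0.02.

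Single genes were tested with limma-trend over all 11231 genes with a mean of at least 1, at a Benjamini-Hochberg adjusted p under 0.05. Rises and falls below are calls shared by this test and a second one, with random decimals restored to the whole-number values. Of the 346 members, 132 rose (38.2%) and 7 fell (2.02%), against 5.12% and 5.80% of all tested genes. The whole-number test alone called 136 higher and 8 lower, against 7.17% and 7.96%. The remaining 207 were not called by both tests, which does not show that they were level. With random decimals alone 211 members were called higher and 10 lower, against 11.1% and 12.1% of all tested genes. In direction alone, 313 members had a positive log2 fold change, 30 a negative one and 3 exactly 0. Both Myh9 KO libraries lay above both WT libraries in 277 members (80.1%) and below them in 18 (5.20%), against 26.2% and 27.3% of all tested genes. Chromosome 6 was singled out with these data in view, so the counts describe it and are no independent evidence. With 1 library left out the members called higher numbered 40 (without WT 1), 38 (without WT 2), 63 (without Myh9 KO 1) and 61 (without Myh9 KO 2), against 1.23%, 1.41%, 3.00% and 2.40% of all tested genes, while the median stayed between 0.44 and 0.50. The naming rule gives 39 called members, and the calls of 7 of them (Trh, Cct7, Brk1, Emg1, Wbp11, Nagk and Nfu1) held with each library left out in turn. Calls were lost for 27 of the 39 without WT 1, 27 without WT 2, 15 without Myh9 KO 1 and 17 without Myh9 KO 2.

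Most members moved by a modest amount. Between the group means, 231 members (66.8%) had a ratio from 1.2 to 1.8, against 40.0% of chromosome 8 genes and 14.6% of genes on the other autosomes. The median ratio was 1.40, against 1.16 and 0.98. The range from 1.2 to 1.8 surrounds the members' median, so these shares restate the displacement. They do not show that the genes moved alike, as the members' interquartile range was 0.39, against 0.36 on the other autosomes. The 95% confidence interval of the log2 fold change held 0.58, the scale of 3 copies over 2, in 212 members. It lay wholly below that value in 102, wholly above it in 32 and wholly above 0 in 213. How often the intervals of genes on other chromosomes hold 0.58 was not tested. Rises of at least 2-fold were called in 13 members and falls of that size in 4. The 4 falls had Myh9 KO means under 5 and reached the limit for members through WT alone, and 4 of the rises reached it through Myh9 KO alone, so these 2 counts follow in part from the choice of members.

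The 8 members of highest mean value, where rounding matters least, all rose. Pcbp1, an RNA-binding protein of C-rich sequences, rose from 831 and 823 to 1232 and 1397 (a log2 fold change of 0.67 with an SE of 0.08, adjusted p = 0.0443 by limma). Serbp1, another mRNA-binding protein, rose from 885 and 870 to 1441 and 1276, and Fkbp4, a co-chaperone of HSP90, from 862 and 880 to 1207 and 1262. In each of these genes the lower Myh9 KO library lay well above the higher WT library. Hnrnpf, a splicing regulator, rose from 861 and 897 to 1178 and 1140, although 49.0% of its 50-base words occur in other genes. Cct7, a subunit of the TRiC chaperonin, rose from 764 and 771 to 1045 and 1052, with exons that overlap Pradc1 (a log2 fold change of 0.45 with an SE of 0.01, adjusted p = 0.00322 by limma). Phb2, the inner mitochondrial membrane protein prohibitin 2, rose from 725 and 724 to 1056 and 1113. Akr1b3, which codes for aldose reductase, rose from 702 and 683 to 964 and 989, and Ptms, which codes for parathymosin, from 533 and 492 to 863 and 965. Exons of Pcbp1, Serbp1, Hnrnpf and Phb2 also overlap those of other genes. Such an overlap was present in 136 of the 346 members and is not marked for every gene named. These 8 transcripts rose by 0.40 to 0.83 on the log2 scale with no overlap between the groups. Both Myh9 KO libraries lay above both WT libraries in 94.1% of members with a mean of at least 200 and in 26.2% of all tested genes.

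**Figure D2:**
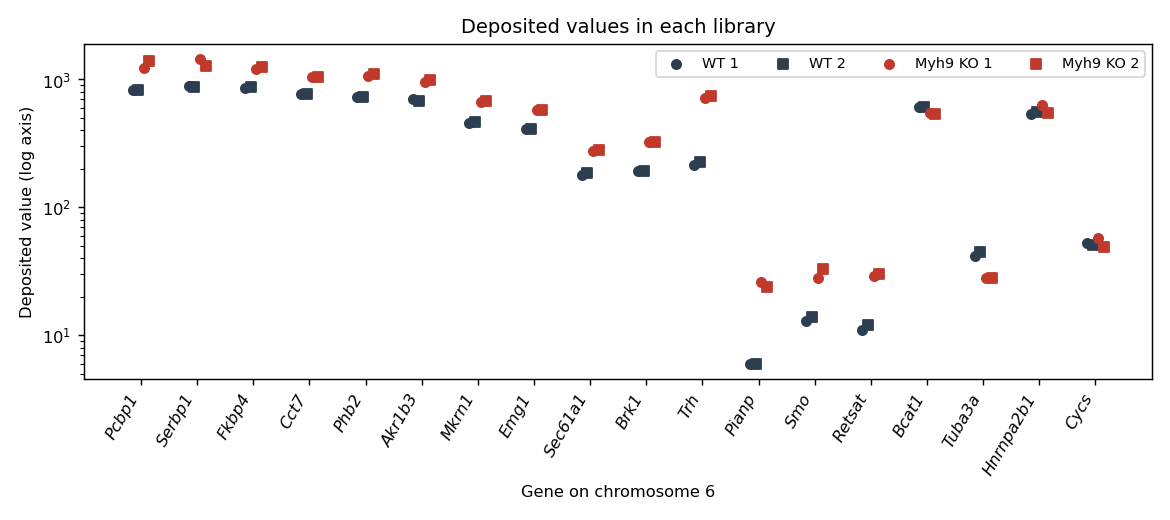
Deposited values (log axis) of 18 chromosome 6 members in WT 1, WT 2 (dark) and Myh9 KO 1, Myh9 KO 2 (red), circles for replicate 1 and squares for replicate 2. From Pcbp1 to Retsat both Myh9 KO libraries lie above both WT libraries, Bcat1 and Tuba3a lie below them, and the groups overlap in Hnrnpa2b1 and Cycs.

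The displacement was present in every expression class. Members with a mean of 5 to 10 (72 genes) and of 10 to 20 (72 genes) both had a median log2 fold change of 0.42. The median was 0.45 for 20 to 50 (89 genes), 0.50 for 50 to 100 (43 genes), 0.48 for 100 to 200 (36 genes) and 0.48 for 200 or more (34 genes). On the other autosomes the 6 classes had medians between -0.05 and 0.00. Over the members the Spearman correlation of the log2 fold change with the mean value was 0.06, a description over 346 genes that share their libraries.

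Scatter was wider and calls were fewer in the low classes. Of members at 5 to 10, 54 of 72 had a positive log2 fold change and the standard deviation was 0.79. In that class 10 rose (13.9%, against 2.57% on the other autosomes). Of members at 200 or more, 33 of 34 were positive and the standard deviation was 0.31. In that class 25 rose (73.5%, against 4.31% on the other autosomes). Over all 70 members with a mean of at least 100, 69 were positive and 48 rose (68.6%), whereas 469 of 1109 such genes on the other autosomes were positive and 56 rose (5.05%). The exception among the 70 was Bcat1. Hmces, which protects abasic sites in DNA, stood at 110 and 115 in WT against 112 and 113 in Myh9 KO (log2 fold change 0.00), and the histone gene H2afj had 98 and 108 and then 106 and 108 (0.06). Both of these were singled out after their values were seen.

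**Figure D3:**
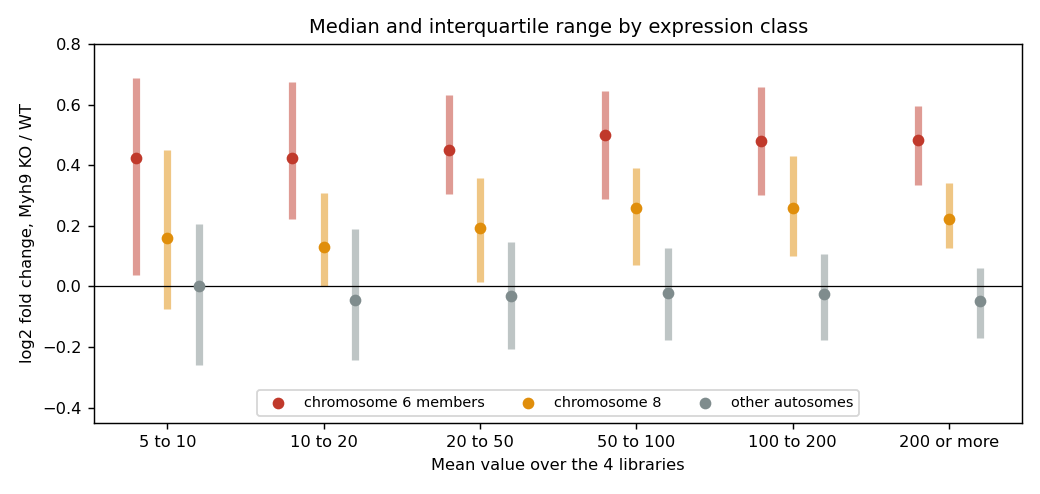
Median (point) and interquartile range (bar) of the log2 fold change by class of mean value, for chromosome 6 members (red), chromosome 8 genes (orange) and genes of the other autosomes (grey). Chromosome 6 medians stay between 0.42 and 0.50 in all 6 classes, and the bar is widest in the lowest class (0.65) and narrowest in the highest (0.26).

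A mean taken over both groups can admit a gene through 1 group alone. Of the members, 21 had a WT mean under 5 and 6 a Myh9 KO mean under 5. In the 319 members where both group means reached 5 the median was 0.45. Just inside the limit, with a mean of 5, Cep41 had WT values of 3 and 3 against 8 and 6, and D6Wsu163e 6 and 5 against 4 and 5. Just outside it, with a mean of 4.75, Halr1 had 5 and 3 and then 8 and 3, and Zfp467 had 0 and 1 and then 7 and 11. The 51 genes dropped by name had a median of 0.58. Of them 26 rose (51.0%) and 2 fell (3.92%), against 5.12% and 5.80% of all tested genes.

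The displacement ran along the whole chromosome. Members began with Bet1 (4076899 to 4086972) and ended with Gm15784 (149361686 to 149363147), a span of 145 Mb on mm10, and the widest gap between neighbouring starts was 7.27 Mb, between Ppp4r2 and Sumf1. In windows of 10 Mb counted from the first base, each of the 15 windows had a positive median. In the 11 windows with at least 8 members the median lay between 0.30 and 0.59. The lowest was the window from 50 to 60 Mb (23 members, 19 positive, 3 rises) and the highest that from 90 to 100 Mb (18 members, all positive, 6 rises). The last window, from 140 to 150 Mb, had a median of 0.34 (21 members, 20 positive). The 4 and 5 members of the first and second windows had medians of 0.56 and 0.61.

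The window from 80 to 90 Mb, the richest in members, had 57 of 58 positive and 26 rises at a median of 0.46. That from 110 to 120 Mb had 38 of 43 positive and 25 rises (0.52), and that from 120 to 130 Mb had 48 of 50 positive and 22 rises (0.46). Rises made up 44.8%, 58.1% and 44.0% of the members in these windows, against 38.2% of all members and 5.12% of all tested genes. The share was 13.0% in the lowest window, from 50 to 60 Mb. In the lowest window the median stood at 0.35 in Myh9 KO 1 and 0.20 in Myh9 KO 2 against the WT mean. That window holds Hnrnpa2b1 and Cbx3, neighbouring genes of an RNA-binding protein and of the heterochromatin protein HP1 gamma, and Cycs, which codes for cytochrome c.

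The running median over 25 neighbouring members stayed between 0.30 and 0.60. The longest run of neighbours with a positive log2 fold change held 76 members, from Htra2 to Sumf1 (83051266 to 108185582). The Spearman correlation of the log2 fold change with position was 0.03, and that between neighbouring members -0.03. These describe 346 genes of the same 4 libraries.

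**Figure D4:**
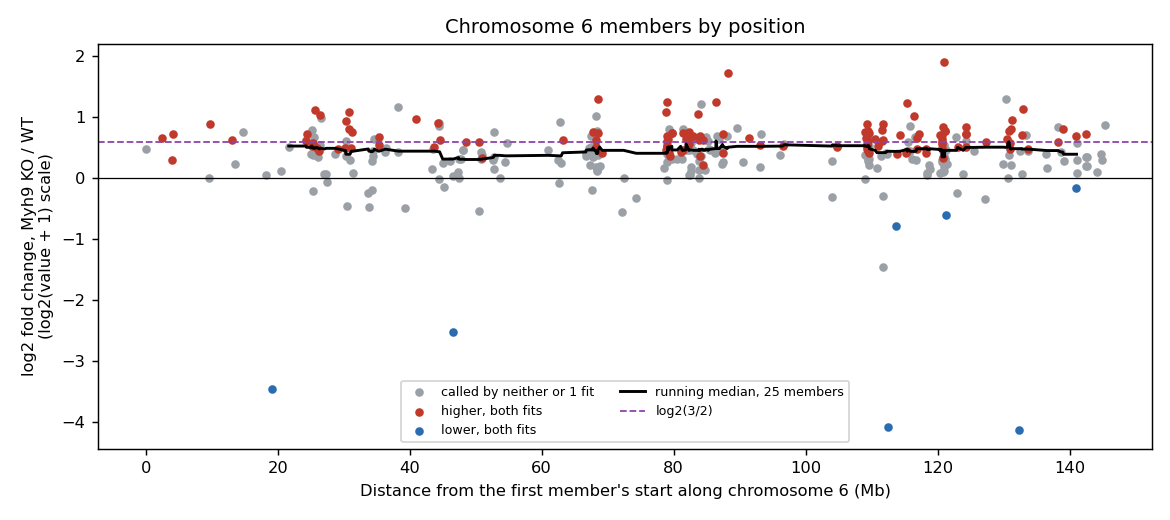
Log2 fold change of each of the 346 members against the distance of its start from that of the first member (Mb), red where called higher by both tests, blue where lower, grey otherwise. The running median over 25 members (black) stays between 0.30 and 0.60, above 0 throughout and mostly under the dashed line at 0.58, the log2 of 3 over 2.

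Members were also grouped by role, in 7 lists drawn up by hand. Each list had a median between 0.43 and 0.57, and over the 7 lists the shares called higher ran from 20.8% to 56.3%. The share was 38.2% of all members and 5.12% of all tested genes. Among members it also climbed with mean value, from 13.9% at 5 to 10 to 73.5% at 200 or more. The part of expression level in the differences between lists was not tested. Across the 198 members in any list the median was 0.47 with 84 rises and 1 fall. In the 148 members of no list it was 0.40 with 48 rises and 6 falls. The lists were made with results of these data known, and nothing is said from them about the role itself.

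Among 28 genes of chromatin and transcription 9 rose and none fell (median 0.46). Tulp3, a tubby-like protein, rose from 50 and 51 to 89 and 92, and Phc1, a subunit of Polycomb repressive complex 1, from 128 and 128 to 176 and 181. Smyd5, a lysine methyltransferase gene, rose from 140 and 146 to 234 and 242. Ezh2, the histone H3 methyltransferase of Polycomb repressive complex 2, stood at 30 and 30 in WT against 45 and 39 in Myh9 KO and was not called by both tests (limma adjusted p = 0.0867). The remodeller gene Chd4 had 86 and 102 and then 116 and 115, Cbx3 had 104 and 112 and then 149 and 119, and Foxm1, a cell cycle transcription factor, had 38 and 41 and then 57 and 64. All 4 of these uncalled genes were higher in both Myh9 KO libraries than in both WT libraries. So were 89.3% of this list, 80.1% of all members and 26.2% of all tested genes.

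Of 21 genes of the cell cycle and DNA repair 7 rose and none fell (median 0.48, all 21 positive). Xpc, a damage sensor of nucleotide excision repair, rose from 11 and 12 to 20 and 19, and Fancd2, of the Fanconi anemia pathway, from 10 and 10 to 14 and 14. Rhno1, a checkpoint factor gene next to Foxm1, rose from 46 and 46 to 73 and 79. Mad2l1, the spindle checkpoint protein MAD2, stood at 58 and 52 in WT against 72 and 63 in Myh9 KO, and the cyclin-dependent kinase inhibitor gene Cdkn1b had 12 and 13 and then 18 and 15. Neither of these was called. Ccnd2, which codes for cyclin D2, stood below the limit for members, with WT values of 0 and 1 and Myh9 KO values of 2 and 2.

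Of 37 genes of RNA processing and translation 20 rose and none fell (median 0.49). Emg1, a ribosomal RNA methyltransferase, rose from 411 and 407 to 574 and 575 (a log2 fold change of 0.49 with an SE of 0.01, adjusted p = 0.00257 by limma). Its exons overlap those of Lpcat3, and no step that keeps the RNA strand is described. Whether reads of the 2 genes were told apart is therefore not known. The splicing factor gene Wbp11 rose from 125 and 123 to 203 and 201, and Mkrn1, a RING finger ubiquitin ligase, from 456 and 466 to 668 and 673. Hnrnpa2b1, an abundant RNA-binding protein, stood at 542 and 559 in WT against 629 and 551 in Myh9 KO, which overlapped between groups (log2 fold change 0.10, 95% confidence interval -0.20 to 0.40).

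The list with the largest share of rises was protein folding, secretion and membrane traffic, where 18 of 32 rose, none fell and all 32 had a positive log2 fold change (median 0.51). Besides Cct7, these included Sec61a1, the channel subunit of the endoplasmic reticulum translocon, from 179 and 185 to 278 and 282, and Rpn1, of the oligosaccharyltransferase, from 139 and 138 to 219 and 229. Signalling and ubiquitin had the smallest share, with 5 of 24 rising and none falling (median 0.43). Smo, the signal transducer of the Hedgehog pathway, rose from 13 and 14 to 28 and 33, and Camk1, a calmodulin-dependent kinase gene, from 15 and 13 to 26 and 27, with exons that overlap Ogg1.

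Of 36 genes of metabolism and mitochondria 15 rose and 1 fell (median 0.43). Nfu1, which delivers iron-sulfur clusters, rose from 129 and 126 to 203 and 206, and Nagk, the kinase of N-acetylglucosamine, from 20 and 20 to 34 and 34. Cycs stood at 53 and 51 in WT against 58 and 49 in Myh9 KO, which overlapped between groups. Of 21 genes listed by hand under cytoskeleton, adhesion and membrane 10 rose and none fell (median 0.57). These rises include Ptms, Htra2 and the small GTPase gene Rerg, so the count describes the list more than the role. Brk1, a subunit of the WAVE complex that drives actin branching, rose from 193 and 194 to 324 and 322 (a log2 fold change of 0.74 with an SE of 0.01, adjusted p = 0.00111 by limma), and Emp1, an epithelial membrane protein gene, from 6 and 6 to 13 and 12.

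**Figure D5:**
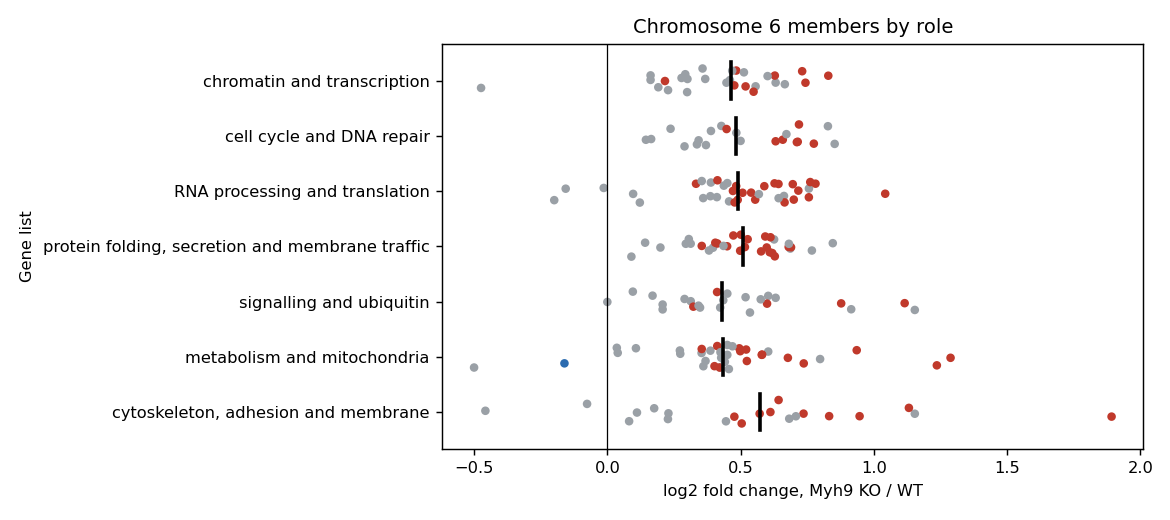
Log2 fold change of the members in each of 7 lists by role, 1 point a gene (red where called higher by both tests, blue lower, grey otherwise), with the list median as a black bar. All 7 medians lie between 0.43 and 0.57, and the single blue point is Bcat1.

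A few members rose far more than the chromosome as a whole. Trh (ENSMUSG00000005892, 92242061 to 92244650), the precursor of thyrotropin-releasing hormone, rose from 214 and 226 to 712 and 744 (a log2 fold change of 1.72 with an SE of 0.04, adjusted p = 0.00406 by limma). It was the only member with a mean of at least 100 whose log2 fold change passed 1. Pianp (ENSMUSG00000030329, 124996694 to 125003096), a ligand of the immune receptor PILR alpha, rose from 6 and 6 to 26 and 24 (a log2 fold change of 1.89 with an SE of 0.05). That call was lost without either WT library.

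Other large rises came mostly in genes of low value, though Isy1 had a mean of 75.5 and Tmem209 of 30.25. Tlx2, Rerg, Stra8 and Sema4f had WT means under 5 and became members through their Myh9 KO values alone, so their rises describe that choice. Retsat, which codes for retinol saturase, rose from 11 and 12 to 29 and 30, and Aldh1l1, a folate enzyme gene, from 6 and 6 to 16 and 15. The homeobox gene Tlx2 rose from 3 and 3 to 8 and 9, the ligand gene Wnt5b from 7 and 9 to 20 and 20, and the small GTPase gene Rerg from 4 and 4 to 9 and 11. Stra8, a meiosis gene induced by retinoic acid, rose from 3 and 3 to 8 and 7, and Sema4f, a semaphorin, from 3 and 3 to 7 and 8. Isy1, a spliceosome component, rose from 48 and 50 to 104 and 100, and Tmem209, a nuclear envelope protein gene, from 19 and 20 to 42 and 40. With Smo, Trh and Pianp, these 12 genes had log2 fold changes from 1.03 to 1.89.

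Of the 7 members that fell, 4 are annotated as protein coding and 3 are not. Bcat1 (ENSMUSG00000030268, 144993835 to 145076184), the cytosolic branched-chain aminotransferase, fell slightly, from 604 and 607 to 543 and 540 (a log2 fold change of -0.16 with an SE of 0.01, adjusted p = 0.0146 by limma). That call was lost with any 1 library left out, with centring on genes outside chromosomes 6 and 8 (-0.13) and with the GC and length trend removed (-0.11). Tuba3a (ENSMUSG00000067702, 125278274 to 125286042), an alpha-tubulin gene with 33.6% of its words in other genes, fell from 42 and 45 to 28 and 28 (a log2 fold change of -0.62 with an SE of 0.05, adjusted p = 0.0212 by limma).

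The other 5 were predicted genes with no conventional name, given here because they complete the count. Gm5580, at 15 and 17 in WT, was listed at 0 in both Myh9 KO libraries. Gm8994 went from 22 and 26 to 0 and 1, Gm5989 from 44 and 53 to 4 and 3, Gm8038 from 10 and 11 to 1 and 1, and Gm7292 from 12 and 12 to 7 and 6. Between 48.9% and 98.4% of their 50-base words occur in other genes, so the place these reads came from is uncertain.

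The 19 members with over 50% of their words in other genes had a median log2 fold change of -0.08, with 5 rises (26.3%) and 4 falls (21.1%). Of all tested genes 5.12% rose and 5.80% fell. The 18 members not annotated as protein coding, 10 of them processed pseudogenes, had a median of 0.02, with 2 rises (11.1%) and 3 falls (16.7%). The 328 protein-coding members had a median of 0.46, with 130 rises (39.6%) and 4 falls (1.22%). In the 200 members with no exon shared with another gene and at most 50% of words shared, the median was 0.46. Of these 78 rose (39%) and 1 fell (0.5%).

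GC content moved with the fold change on every chromosome set. With autosomal genes split into low, middle and high classes of transcript GC content (at 48.3% and 54.0%), chromosome 6 members had medians of 0.40, 0.48 and 0.54 from low to high. The same classes had medians of 0.09, 0.18 and 0.30 on chromosome 8 and of -0.15, -0.01 and 0.07 on the other autosomes. Members of low GC content stood at 0.46 in Myh9 KO 1 and 0.35 in Myh9 KO 2 against the WT mean, and those of high GC content at 0.51 and 0.58. The 2 Myh9 KO libraries differed in the same way on the other autosomes, at -0.08 and -0.21 for low and 0.02 and 0.11 for high GC content. Chromosome 6 thus lay above the other autosomes in each GC class, and the members' median GC content was 49.6%, against 51.2% on the other autosomes.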

How the data were processed

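Gene expression was measured by RNA-seq of oligo-dT-enriched RNA in 2 WT and 2 Myh9 KO libraries. The unit of the deposited values is not stated, and they were taken as a score, being whole numbers with nearly equal library totals, like per-million values without decimals. They are not read counts, so depth is unknown and no count model was used. Bowtie2 2.2.5, RSEM 1.3.0, bcl2fastq and the builds mm10 and hg38 are named with no role, per the submitters' processing notes. All 346 members had the same coordinates in GENCODE vM21 (GRCm38), which also gave GC content, length, exon overlaps and shared 50-base words of the longest transcript. The labels' protocols describe no step that keeps the RNA strand.

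limma-trend (limma 3.58.1, R 4.3.3) was run on log2(value + 1) for the 11231 genes with a mean of at least 1. It was repeated with a uniform number from 0 to 1 added to each value, taking the median adjusted p over 25 draws, and a call needed both. The fits were tested on simulated data. The members and lists were chosen with earlier results of these data known. Beside fixed names, the text names the largest called changes, the highest levels and the smallest p-values of each list. Some genes that this rule names are not reported here. Alternatives varied scaling, pseudocount, filters, decimals, block, members and libraries.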

Additional observations from a re-analysis of the deposited data

How the results depend on the processing

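The direction of the member median held under every alternative run. It was 0.48 with centring on genes outside chromosomes 6 and 8, 0.55 with the trend on GC content and length removed, and 0.44 to 0.50 with 1 library left out. Members called higher numbered 211 with random decimals alone (11.1% of all tested genes), 247 with the GC and length trend removed (14.5% of all tested genes, against 5.12% as reported), 78 without overlapping or word-sharing members (fewer members), and 38 to 63 with 1 library left out. Members called lower numbered 3 to 4 with 1 library left out, 4 at a mean of at least 10, 4 among protein-coding members and 1 without overlapping or word-sharing members. With 1 library left out the lone sample of that group is assumed to vary like the other group.

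With the replicate number as a block, limma with both fits called 0 members higher and 0 lower (194 and 12 at an unadjusted p under 0.05). Of all tested genes it called 10 higher (0.0890%). That fit with random decimals alone called 209 members higher, against 11.3% of all tested genes. Like the protein-coding one, this alternative was added after the data were seen. The labels give no pairing, and same-numbered deviations correlated at 0.04.

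The lowest class median was 0.37 with a pseudocount of 2, 0.52 with the GC and length trend removed and 0.35 to 0.47 with 1 library left out. The highest was 0.60 with that trend removed. The lowest window median was 0.47 with that trend removed and 0.20 to 0.35 with 1 library left out. The highest was 0.68 with that trend removed, 0.65 with no names dropped, 0.52 at a mean of at least 10, 0.64 without overlapping or word-sharing members and for protein-coding members alone, and 0.51 to 0.57 with 1 library left out. The ratio of summed shares was 1.38 without the 10 highest members. Where no construction is named the cause was not tested.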
